A study of Mus musculus with 8 samples.

Results

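Id1, Id2, Id3, Id4, Smad6, Msx1, Msx2, Msx3, Bmp4 and Bmp7, genes of the BMP response and of the dorsal neural tube, were followed in anterior neural progenitor cells (AntNPC) made from mouse embryonic stem cells. They were found by symbol in the authors' expression table and are 10 of its 46406 entries. Poly(A) RNA of 3 cell lines was sequenced in 8 libraries. Clone 2 and clone 1 are clonal lines with the genotype PE Lhx5(-109)-/-, which lack a poised enhancer (PE) named for its position relative to Lhx5, and each gave 2 libraries. The WT line is E14, the embryonic stem cell line in which CRISPR-Cas9 and a pair of guide RNAs made the deletion, and it gave 4 libraries. All 3 lines were differentiated in serum-free N2B27 medium with 10 ng/ml bFgf up to day 3 and with 5 µM Xav939, a WNT inhibitor, between day 2 and day 5. The labels name no BMP ligand or BMP inhibitor among the additives. Each null line is 1 clone picked after transfection and puromycin selection, while WT carries no clone label, so the deletion and the derivation of clones cannot be told apart.

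BMPs are secreted ligands of the TGF-beta superfamily. They bind pairs of type I and type II serine/threonine kinase receptors, and the receptors phosphorylate SMAD1, SMAD5 and SMAD9, which enter the nucleus with SMAD4. The Id genes are among the most direct targets of these SMADs. Their products are helix-loop-helix proteins without a DNA-binding region, which hold E proteins back from partners such as the proneural factors. Smad6 is a target too, and its product blocks the receptors and SMAD1. In the neural tube, BMPs from the surface ectoderm and the roof plate pattern the dorsal side, where the Msx homeobox genes are expressed, and Msx3 in the mouse is known as a gene of the dorsal neural tube. Bmp4 and Bmp7 encode ligands expressed in the ectoderm and roof plate.

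Promoters are shown for 3 genes that differed between lines, to set their letters beside known SMAD-bound sequences, from RefSeq (GRCm38.p6) as the 250 bases before the RefSeq start. RefSeq windows were matched for 8 of the 10 genes, and 4 of the 8 windows do not overlap an annotated exon. The 3 shown are those of Id4, Msx1 and Bmp4. Capitals mark GGCGCC, a GC-rich sequence that SMADs can bind.
Id4 promoter, chr13:48260866-48261115, plus strand: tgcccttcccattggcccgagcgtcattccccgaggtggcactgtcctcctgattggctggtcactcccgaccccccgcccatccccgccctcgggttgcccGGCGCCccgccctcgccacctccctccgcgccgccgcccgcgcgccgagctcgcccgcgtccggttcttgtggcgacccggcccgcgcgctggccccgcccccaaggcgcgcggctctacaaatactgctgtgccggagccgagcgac
Msx1 promoter, chr5:37824586-37824835, minus strand: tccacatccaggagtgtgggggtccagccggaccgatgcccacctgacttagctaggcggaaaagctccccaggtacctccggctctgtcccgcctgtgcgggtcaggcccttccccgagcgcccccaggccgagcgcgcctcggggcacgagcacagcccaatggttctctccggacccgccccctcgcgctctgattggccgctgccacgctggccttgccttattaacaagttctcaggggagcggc
Bmp4 promoter, chr14:46390670-46390919, minus strand: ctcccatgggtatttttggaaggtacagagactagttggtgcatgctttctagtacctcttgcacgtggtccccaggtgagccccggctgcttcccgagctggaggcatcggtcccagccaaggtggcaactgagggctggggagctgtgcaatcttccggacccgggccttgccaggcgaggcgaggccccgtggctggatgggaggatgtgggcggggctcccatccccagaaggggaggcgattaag
The search used the letters GGCGCC and GTCTAGAC, both of which read the same on either strand. GGCGCC was found in 2 of the 8 windows, beginning 148 bases before the start of Id4 and 231 bases before the start of Id2. It was in 9.54% of 27025 promoter windows of the same length. GTCTAGAC, the palindromic SMAD sequence, was in 0 of the 8 windows and in 0.174% of all windows, so no match overlapped another. The GC content was 75.6% in the Id4 window, 68% in the Msx1 window and 63.2% in the Bmp4 window, against a median of 52% over all windows.

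Levels are in FPKM, which is scaled by gene length and by the mapped total, so that levels of different genes can be compared. The sum of FPKM over all genes ran from 518491 to 528726. How many reads each library holds is unknown, but the steps between low values put the relative depths at 0.986 to 1.20 of WT replicate 1. Lhx5, the gene that the deleted enhancer is named for, averaged 1.58 ± 0.448 FPKM in clone 2, 1.05 ± 0.272 FPKM in clone 1 and 16.4 ± 1.05 FPKM in WT (SD, n = 2, 2 and 4). Summed neural progenitor markers stood at 331 to 359 FPKM in clone 2, 282 to 307 FPKM in clone 1 and 327 to 353 FPKM in WT. This sum hides opposite moves of its members. Clone 2 had 4 of the 8 genes above every WT library and 3 below, while clone 1 had 1 above and 6 below. Over the 14521 genes that averaged at least 1 FPKM, 24.7% lay above and 22.7% below all WT libraries in clone 2. In clone 1 these shares were 12.1% and 29.2%. Pax6 fell to 17.8 and 11.1 FPKM in clone 2, under a WT range of 36.2 to 39.8 FPKM. Fabp7 rose there to 9.18 and 18.8 FPKM, over a WT range of 1.30 to 2.76 FPKM. Clone 1 replicate 2 stood apart in RNA that lacks a poly(A) tail: Rn7sk reached 250.2 FPKM there, against 8.05 to 28.4 FPKM in the other 7 libraries.

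The same order held at the top in every line, and the lower ranks differed. Id3 was the highest of the 10 genes, followed by Id2, Id1 and Bmp7, in clone 2, clone 1 and WT alike, and the library ranges of these 4 genes did not overlap within any line. Below them, clone 2 had Msx3 in rank 5, whereas Msx3 was in rank 10 in clone 1 and in WT. In WT the ranges of neighbouring genes overlapped only for Id4 with Msx2 and for Msx2 with Msx3. In clone 2 they overlapped for Msx3 with Smad6, Msx1 with Bmp4 and Bmp4 with Id4, and in clone 1 for no neighbours.

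**Figure D1:**
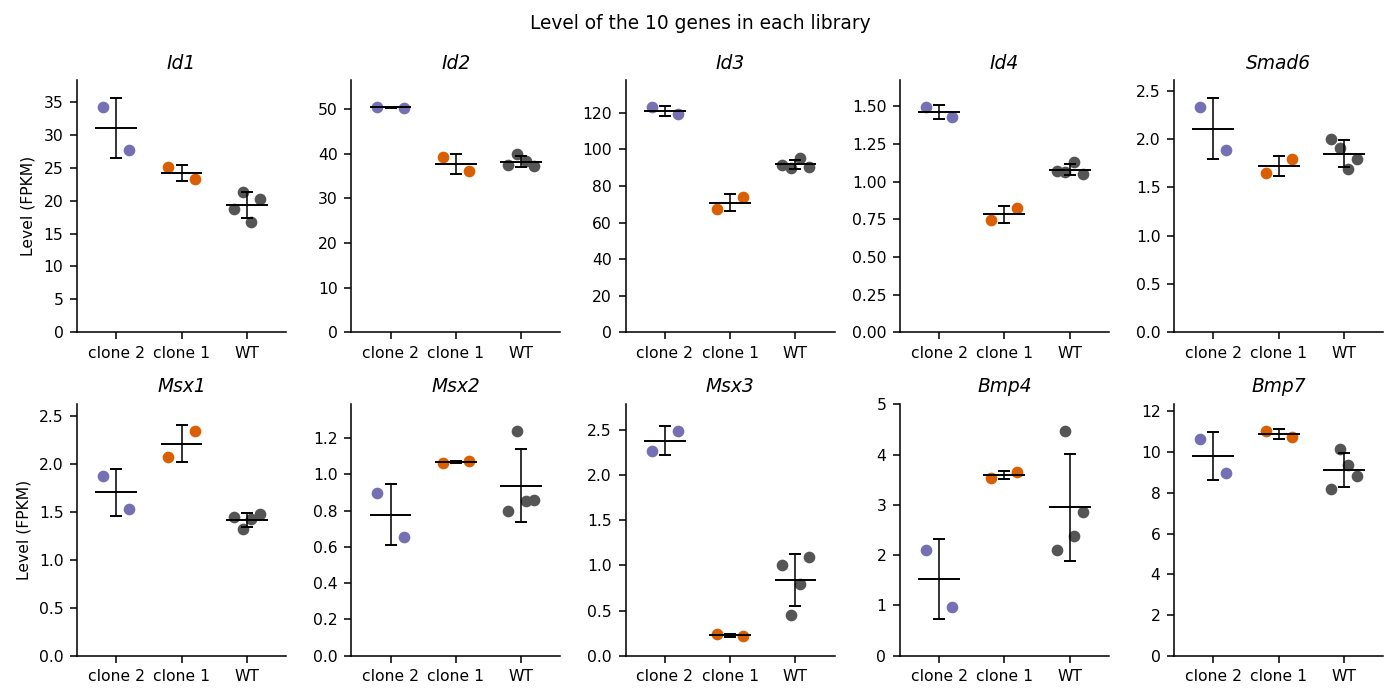
Level in FPKM on linear axes for each of the 10 genes in clone 2, clone 1 and WT, with 1 point per library, a bar at the mean and an error bar of 1 SD. Id3, Id4 and Msx3 stand highest in clone 2 and lowest in clone 1, whereas Bmp4 and Msx2 average lowest in clone 2.

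The 4 comparisons were made with limma on log2(FPKM + 1), a scale on which differences of low genes are understated. A gene was tested if its mean over the 8 libraries reached 1 FPKM, and it was called at an adjusted p below 0.05. Of the 10 genes, 9 were tested, and Msx2, at a mean of 0.93 FPKM, was not. Msx3 passed through its level in clone 2, since its means in WT and in clone 1 were below 1 FPKM. Its differences from WT and between the clones thus partly follow from the filter, and Msx3 is among the genes called below in each clone comparison. The comparisons of either clone with WT share the WT libraries. In clone 2 against WT, 4 of 9 genes were higher and 0 were lower, where 7.06% of the 14521 tested genes were higher, 6.96% were lower and 14.0% were called in either direction. In clone 1 against WT, 1 of 9 was higher and 2 were lower, where 4.16% of all tested genes were higher, 11.4% were lower and 15.6% were called in either direction. In clone 2 against clone 1, 4 of 9 were higher and 1 was lower, where 24.9% of all tested genes were higher, 15.0% were lower and 39.9% were called in either direction. With all 4 null libraries against the 4 WT libraries, limma called 0 of 9 genes, where 0.0551% of all tested genes were called, and 2 of the 9 had an unadjusted p below 0.05.

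Id3, the most abundant gene of the group, went in opposite directions in the clones (ENSMUSG00000007872, chromosome 4, 136143497 to 136145755, GRCm38). Id3 stood at 123 and 119 FPKM in clone 2, at 67.5 and 74.0 FPKM in clone 1, and at 91.3, 89.9, 95.2 and 90.6 FPKM in WT. Every clone 2 library lay above and every clone 1 library below all WT libraries. In bulk RNA, fewer cells expressing a gene and less of its RNA per cell cannot be told apart, here and for each gene below. Id3 was 1.32 times its WT level in clone 2, with a log2 difference of 0.40 (SE 0.046, limma adjusted p = 0.00364). Clone 1 had 0.771 times the WT level, with a log2 difference of -0.37 (SE 0.046, limma adjusted p = 0.00348). Without clone 1 replicate 2, the library that stood apart, the clone 1 difference was -0.44 (limma adjusted p = 0.00902). The direct comparison of clone 2 with clone 1 gave 0.77 (95% interval 0.65 to 0.89, limma adjusted p = 9.75e-05). Averaged over both lines, Id3 was at 95.9 ± 29.3 FPKM in null and 91.7 ± 2.37 FPKM in WT (SD, n = 4 each), with a log2 difference of 0.01 (95% interval -0.45 to 0.48).

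Id1 was higher in every null library than in any WT library, with its largest level in clone 2 (chromosome 2, 152736251 to 152737410). Id1 stood at 34.2 and 27.7 FPKM in clone 2, at 25.0 and 23.4 FPKM in clone 1, and at 18.8, 21.4, 16.8 and 20.3 FPKM in WT. Libraries of null and WT lay apart in this direction for 1.03% of all tested genes. In clone 2 Id1 rose to 1.60 times the WT level (log2 difference 0.65, SE 0.11, limma adjusted p = 0.00993). In clone 1 the level was 1.25 times that of WT, with a log2 difference of 0.32 that did not pass (95% interval 0.07 to 0.56, limma adjusted p = 0.0775). That difference passed after rescaling (adjusted p = 0.0459) and without WT replicate 2 (adjusted p = 0.0494), and it stayed short of the threshold in 12 of 14 alternatives. Clone 2 and clone 1 differed by 0.34 on the log2 scale, also short of the threshold (95% interval 0.06 to 0.62, limma adjusted p = 0.0580). It passed at a mean of at least 5 FPKM (adjusted p = 0.0483) and without clone 2 replicate 2, WT replicate 2 or WT replicate 3 (0.0364, 0.0497 and 0.0405). The difference between the clones stayed short of the threshold in 10 of 14 alternatives. Over all null libraries the mean was 27.6 ± 4.76 FPKM, against 19.3 ± 1.99 FPKM in WT (SD, n = 4 each). That log2 difference of 0.49 had an adjusted p of 0.581 in limma, with an unadjusted p of 0.00396. In the authors' deposited table Id1 had a mean of 698 reads in null and 476 reads in WT, a fold of 1.46 with a p-value of 1.7e-05. Adjusted here over the 28134 genes with reads in the authors' deposited table, that p became 0.00313, and 0.782% of those genes passed 0.05. The null group holds 2 libraries from each of 2 clones, so this comparison rests on 2 deletion lines and not on 4.

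Id2 was higher in clone 2 than in clone 1 and in WT (chromosome 12, 25093799 to 25097140). Id2 stood at 50.5 and 50.4 FPKM in clone 2, at 39.3 and 36.1 FPKM in clone 1, and at 37.5, 40.0, 38.4 and 37.2 FPKM in WT. The clone 2 libraries lay above all others, and the clone 1 libraries overlapped those of WT. The clone 2 level was 1.32 times that of WT (log2 difference 0.39, SE 0.050, limma adjusted p = 0.00453). Clone 1 differed from WT by -0.02 (95% interval -0.14 to 0.09, limma adjusted p = 0.781), a value that turned to 0.02 after rescaling the libraries. Clone 2 exceeded clone 1 by 0.41 (SE 0.057, limma adjusted p = 0.00112), and by 0.35 without clone 1 replicate 2 (limma adjusted p = 0.00688).

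Id4, the Id gene with the lowest level, had the same order of lines as Id3 (chromosome 13, 48261228 to 48266026). Id4 stood at 1.49 and 1.43 FPKM in clone 2, at 0.744 and 0.822 FPKM in clone 1, and at 1.07, 1.06, 1.13 and 1.05 FPKM in WT. No library of a line overlapped another line. Clone 2 and clone 1 lay apart in this way for 67.9% of all tested genes. Clone 2 had 1.87 times the level of clone 1, a log2 difference of 0.47 (SE 0.097, limma adjusted p = 0.00589), and it was 0.50 without clone 1 replicate 2 (limma adjusted p = 0.0157). Neither clone passed against WT: the log2 difference was 0.24 in clone 2 (limma adjusted p = 0.0859) and -0.22 in clone 1 (limma adjusted p = 0.104). Both of these passed when limma ran without its trend and robust options (adjusted p = 0.0231 in clone 2 and 0.0241 in clone 1). Each stayed short of the threshold in 12 of 13 alternatives. Id4 overlaps the antisense gene A330033J07Rik, which was at 0 to 0.0231 FPKM, and strand assignment is not stated.

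Smad6, the inhibitory SMAD gene, passed in no comparison (chromosome 9, 63953076 to 64022059). Smad6 stood at 2.33 and 1.88 FPKM in clone 2, at 1.65 and 1.79 FPKM in clone 1, and at 2.00, 1.91, 1.69 and 1.79 FPKM in WT. Both clones overlapped WT. The 95% interval of the log2 difference from WT ran between -0.09 and 0.34 in clone 2 and between -0.28 and 0.15 in clone 1. Clone 2 minus clone 1 was 0.19 (limma adjusted p = 0.203).

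The 4 Id genes summed to 209 and 199 FPKM in clone 2, 133 and 134 FPKM in clone 1, and 149 to 152 FPKM in WT. Id3 made up 58.8% and 60.0% of this sum in clone 2, 50.9% and 55.1% in clone 1, and 59.0% to 62.8% in WT. The Id3 share of clone 1 thus lay below every other library. Id1 made up 16.3% and 14.0% in clone 2, 18.9% and 17.4% in clone 1, and 11.1% to 14.0% in WT. Id4 was under 1% of the sum in all 8 libraries. The 3 Msx genes summed to 5.04 and 4.68 FPKM in clone 2, 3.37 and 3.63 FPKM in clone 1, and 3.01 to 3.43 FPKM in WT. Msx3 made up 45.1% and 53.3% of this sum in clone 2, 7.01% and 5.84% in clone 1, and 15.0% to 31.9% in WT. Msx1 made up 37.2% and 32.6% in clone 2, 61.5% and 64.6% in clone 1, and 43.1% to 46.3% in WT. The leading Msx gene was therefore Msx3 in clone 2 and Msx1 in clone 1 and in WT.

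**Figure D2:**
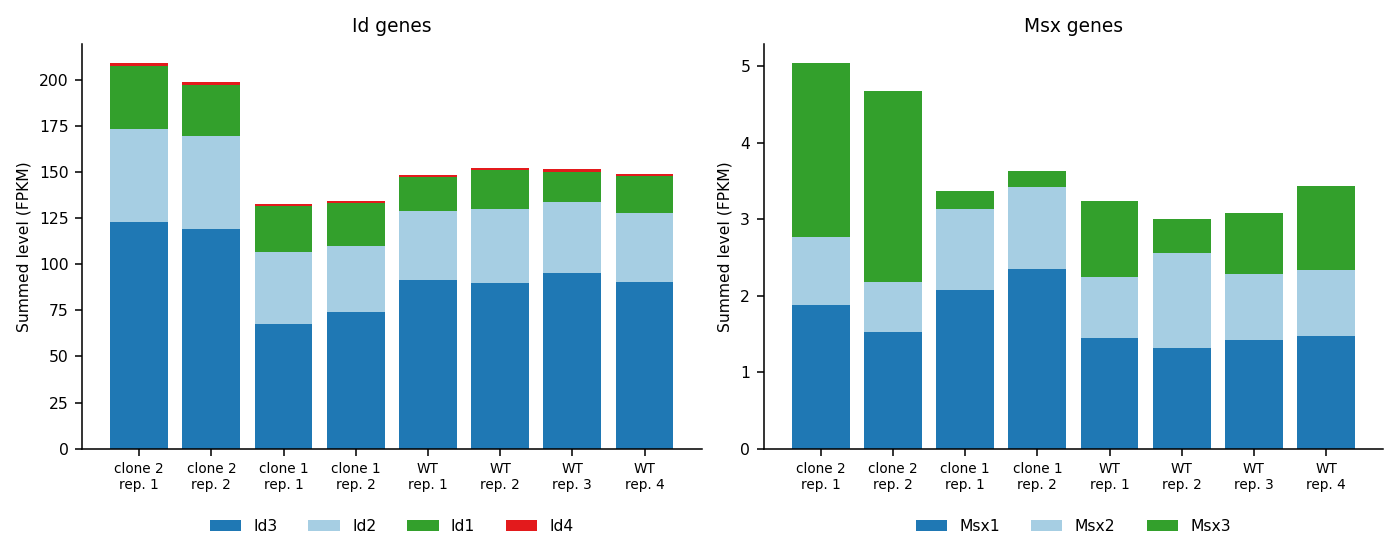
Stacked FPKM of the Id genes (left) and the Msx genes (right) in each library, on linear axes from 0, with 1 bar per library. Clone 2 has the highest bars in both families, and the Msx3 segment takes 45.1% and 53.3% of its Msx bars, against 7.01% and 5.84% in clone 1.

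On the log2 scale Msx3 differed most among the lines (chromosome 7, 140046157 to 140049089). Msx3 stood at 2.27 and 2.50 FPKM in clone 2, at 0.237 and 0.212 FPKM in clone 1, and at 1.01, 0.451, 0.796 and 1.10 FPKM in WT. The 3 lines did not overlap, and WT replicate 2 was the lowest WT library. Because Msx3 passed the filter through clone 2, its difference between the clones partly follows from the filter. Clone 2 had 10.6 times the FPKM of clone 1, a log2 difference of 1.47 (SE 0.17, limma adjusted p = 0.000549), and it was 1.45 without clone 1 replicate 2 (limma adjusted p = 0.00677). Against WT, Msx3 rose to 2.85 times the level in clone 2 (log2 difference 0.89, SE 0.15, limma adjusted p = 0.00993). That call was lost without clone 2 replicate 2 (limma adjusted p = 0.110). In clone 1 Msx3 fell to 0.268 times the WT level (log2 difference -0.57, SE 0.15, limma adjusted p = 0.0337). The clone 1 call was lost without either clone 1 library (adjusted p = 0.0825 without replicate 1 and 0.155 without replicate 2), without WT replicate 1, 3 or 4 (0.0818, 0.0758 and 0.0809) and with no filter on low genes (0.0676). Over all null libraries the level was 1.30 ± 1.25 FPKM, against 0.837 ± 0.286 FPKM in WT (SD, n = 4 each). The authors' deposited table gives a fold of 1.60 for Msx3, with a p-value of 0.430.

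Msx1 was higher in every null library than in any WT library, and unlike Msx3 it averaged higher in clone 1 than in clone 2 (chromosome 5, 37820485 to 37824583). Msx1 stood at 1.88 and 1.53 FPKM in clone 2, at 2.07 and 2.35 FPKM in clone 1, and at 1.44, 1.32, 1.43 and 1.48 FPKM in WT. The lowest null library, clone 2 replicate 2, was just above the highest WT library. In clone 1 Msx1 rose to 1.56 times the WT level (log2 difference 0.41, SE 0.092, limma adjusted p = 0.0216). This call was lost without clone 1 replicate 2 (adjusted p = 0.117) and without WT replicate 1, 3 or 4 (0.0525, 0.0551 and 0.0527). In clone 2 the level was 1.20 times that of WT, with a log2 difference of 0.16 (95% interval -0.05 to 0.37, limma adjusted p = 0.279). Clone 2 minus clone 1 was -0.25 (95% interval -0.49 to -0.01, limma adjusted p = 0.0900). The ratio of Msx3 to Msx1 was 1.21 and 1.63 in clone 2, 0.114 and 0.0903 in clone 1, and 0.343 to 0.740 in WT.

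Over all null libraries Msx1 averaged 1.96 ± 0.345 FPKM, against 1.42 ± 0.0695 FPKM in WT (SD, n = 4 each). The log2 difference of 0.28 had an unadjusted p of 0.0216 and an adjusted p of 0.996 in limma. The authors' deposited table gives Msx1 a mean of 115 reads in null and 81.3 reads in WT, a fold of 1.42 with a p-value of 0.00368, which became 0.266 after adjustment here.

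Msx2 lay below the filter (chromosome 13, 53466884 to 53473074). Msx2 stood at 0.895 and 0.657 FPKM in clone 2, at 1.06 and 1.07 FPKM in clone 1, and at 0.798, 1.24, 0.856 and 0.858 FPKM in WT. Both clones overlapped WT, whose replicate 2 was above the other 3. With no filter, the log2 difference from WT was -0.12 in clone 2 (limma adjusted p = 0.606) and 0.10 in clone 1 (limma adjusted p = 0.677).

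The ligand gene Bmp4 was lower in clone 2 than in clone 1 (chromosome 14, 46383520 to 46390669). Bmp4 stood at 2.09 and 0.959 FPKM in clone 2, at 3.55 and 3.66 FPKM in clone 1, and at 2.10, 4.48, 2.37 and 2.86 FPKM in WT. Clone 2 replicate 1 was just under the lowest WT library, and WT replicate 2 was the highest library. Clone 2 had 0.424 times the level of clone 1, a log2 difference of -0.90 (SE 0.30, limma adjusted p = 0.0463). That call was lost without clone 2 replicate 2 (log2 difference -0.57, adjusted p = 0.230), without clone 1 replicate 1 or 2 (adjusted p = 0.114 and 0.140), without WT replicate 3 or 4 (0.0660 and 0.0771), with no filter (0.0739) and without trend and robust options (0.0560). Against WT the log2 difference was -0.65 in clone 2 (95% interval -1.25 to -0.04, limma adjusted p = 0.139) and 0.26 in clone 1 (95% interval -0.35 to 0.86, limma adjusted p = 0.532). Bmp4 overlaps the antisense gene Gm15222, which was at 0 to 0.328 FPKM.

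Bmp7, the more abundant ligand gene, passed in no comparison (chromosome 2, 172868012 to 172940321). Bmp7 stood at 10.6 and 8.98 FPKM in clone 2, at 11.1 and 10.7 FPKM in clone 1, and at 8.17, 10.1, 9.39 and 8.85 FPKM in WT. Clone 2 overlapped WT and clone 1 lay above it. The log2 difference from WT was 0.09 in clone 2 (95% interval -0.12 to 0.30, limma adjusted p = 0.545) and 0.23 in clone 1 (95% interval 0.02 to 0.44, limma adjusted p = 0.118). The ratio of Bmp7 to Bmp4 was 5.08 and 9.37 in clone 2, 3.12 and 2.93 in clone 1, and 2.26 to 3.96 in WT.

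**Figure D3:**
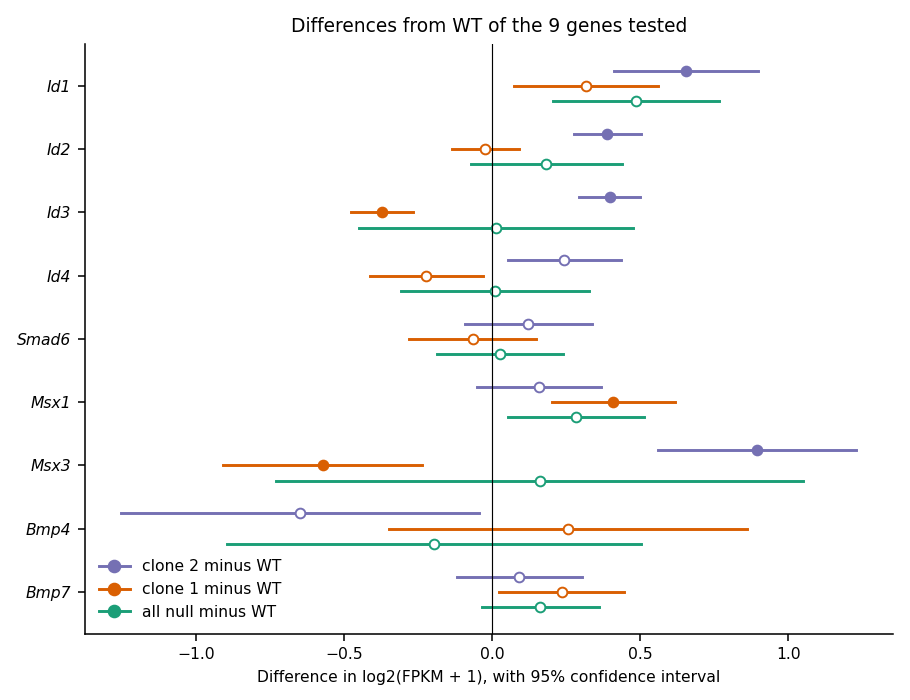
Difference in log2(FPKM + 1) of the 9 tested genes for clone 2 minus WT, clone 1 minus WT and all null minus WT, with bars for the 95% confidence interval. Filled points have a limma adjusted p below 0.05, and Id3 and Msx3 have filled points on opposite sides of 0 in the clones.

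By library position, every clone 2 library lay above all WT libraries for Id1, Id2, Id3, Id4, Msx1 and Msx3 and below them for Bmp4. Such separation upward was seen for 24.7% of all tested genes and downward for 22.7%. Every clone 1 library lay above all WT libraries for Id1, Msx1 and Bmp7 and below them for Id3, Id4 and Msx3. The background was 12.1% upward and 29.2% downward. The median log2 difference of the 9 genes from WT was 0.24 in clone 2, against 0 over all tested genes, and -0.02 in clone 1, against -0.05 over all tested genes.

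The other genes of the pathway were counted from lists, and their values are log2 differences. Over all tested genes the medians were 0 in clone 2 and -0.05 in clone 1. The shares called over all tested genes were 7.06% higher and 6.96% lower in clone 2 against WT, 4.16% higher and 11.4% lower in clone 1 against WT, and 24.9% higher and 15.0% lower in clone 2 against clone 1. These lists were also counted without clone 1 replicate 2, the library that stood apart, and without clone 2 replicate 2, an alternative chosen after seeing the data. Without clone 1 replicate 2, 1.21% of all tested genes were higher and 1.84% lower in clone 1 against WT, with a median of -0.01. Without clone 2 replicate 2, 0.620% were higher and 0.578% lower in clone 2 against WT. Among 12 further BMP and GDF ligands in the table, Gdf7 was the only gene above the filter, and it is also counted among the dorsal genes below. Gdf7, a roof plate ligand, stood at 3.02 and 2.51 FPKM in clone 2, at 1.49 and 1.15 FPKM in clone 1, and at 1.66 to 2.10 FPKM in WT. It was higher in clone 2 than in WT (log2 difference 0.37, limma adjusted p = 0.0499) and was -0.32 in clone 1 (limma adjusted p = 0.0746), and the clone 2 call was lost without clone 2 replicate 2. Like Id3 and Msx3, Gdf7 had its highest libraries in clone 2 and its lowest in clone 1.

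Of 8 tested receptors and co-receptors, 1 was lower in clone 2, and 1 was higher and 3 were lower in clone 1, where 6.96% of all tested genes were lower in clone 2 and 4.16% higher and 11.4% lower in clone 1. The medians were -0.08 in clone 2 and -0.24 in clone 1. Without clone 1 replicate 2, clone 1 had 1 higher and 0 lower, with a median of -0.05, and without clone 2 replicate 2, clone 2 had 0 called. Rgma, a membrane-anchored BMP co-receptor gene, was lower in both, with log2 differences of -0.21 in clone 2 (limma adjusted p = 0.0296) and -0.24 in clone 1 (limma adjusted p = 0.0199). Eng, the endoglin co-receptor gene, was higher in clone 1 by 0.93 (limma adjusted p = 0.00365), also without clone 1 replicate 2. Eng averaged 0.433 FPKM in clone 2, 2.21 FPKM in clone 1 and 0.693 FPKM in WT, so it passed the filter through clone 1 and its difference partly follows from the filter. The type II receptor gene Acvr2a and the co-receptor gene Rgmb were lower there (-0.42 and -0.25, limma adjusted p = 0.0162 and 0.0415). Between the clones, 3 of 8 were higher in clone 2 and 2 were lower, against 24.9% and 15.0% of all tested genes. The type I receptor gene Acvr1 was among the lower (-0.48, limma adjusted p = 0.0150). Of 12 tested SMADs and intracellular inhibitors, 0 were called in clone 2 (2 had an unadjusted limma p below 0.05), and 1 was higher and 2 were lower in clone 1, against 4.16% and 11.4% of all tested genes. The medians were 0.01 in clone 2 and -0.02 in clone 1, and without clone 1 replicate 2 clone 1 had 0 called and a median of 0.07. The 2 lower genes were the phosphatase genes Ctdsp2 (-0.26, limma adjusted p = 0.00821) and Ctdsp1 (-0.19, limma adjusted p = 0.0205), and Tob1, encoding an antiproliferative protein that can bind SMADs, was higher by 0.24 (limma adjusted p = 0.0290). Between the clones, 4 of 12 were higher in clone 2 and 2 were lower, against 24.9% and 15.0% of all tested genes. Smad5, which carries the BMP signal, was among the higher (0.28, limma adjusted p = 0.0106).

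Of 10 tested secreted antagonists and modulators, 1 was higher in clone 2 and 4 were lower in clone 1, against 7.06% higher in clone 2 and 11.4% lower in clone 1 over all tested genes. The medians were 0.05 in clone 2 and -0.01 in clone 1. Without clone 2 replicate 2 clone 2 had 0 called, and without clone 1 replicate 2 clone 1 had 1 lower, Chrdl1. Bmp1, which encodes a protease that cleaves the antagonist chordin and is not a BMP ligand, was called in both, at 0.57 in clone 2 (limma adjusted p = 0.0128) and -0.37 in clone 1 (limma adjusted p = 0.0405). Chrdl1, a chordin-like antagonist gene, stood at 6.10 and 6.42 FPKM in clone 2, at 2.55 and 2.33 FPKM in clone 1, and at 4.17 to 5.65 FPKM in WT. Chrdl1 was lower in clone 1 than in WT (-0.79, limma adjusted p = 0.00381), as were Twsg1 (-0.29, limma adjusted p = 0.0109) and Fstl1 (-0.26, limma adjusted p = 0.0103). Between the clones, 4 of 10 were higher in clone 2 and 2 were lower, against 24.9% and 15.0% of all tested genes. The antagonist gene Nbl1 was among the lower (-0.90, limma adjusted p = 0.00467). Of 7 other tested genes from a list of BMP targets, 3 were higher in clone 2 and 2 were lower in clone 1. Over all tested genes, 7.06% were higher in clone 2 and 11.4% were lower in clone 1. Whether the listed genes answer to BMP in these cells was not tested. The medians were 0.17 in clone 2 and 0.01 in clone 1. Without clone 2 replicate 2 clone 2 had 0 called, and without clone 1 replicate 2 clone 1 had the same 2 lower, Zfp503 and Hes1. Zfp503, a zinc finger gene, was called in both, at 0.72 in clone 2 (limma adjusted p = 0.0176) and -0.95 in clone 1 (limma adjusted p = 0.00609). Junb and Znrf3 were higher in clone 2 (0.46 and 0.34, limma adjusted p = 0.0218 and 0.0417), and Hes1 was lower in clone 1 (-0.40, limma adjusted p = 0.00381). Bambi was called in no comparison (0.17 in clone 2, limma adjusted p = 0.228, and 0.01 in clone 1, limma adjusted p = 0.943). Between the clones, 3 of 7 were higher in clone 2 and 1, Klf2, was lower (-0.84, limma adjusted p = 0.00371), against 24.9% and 15.0% of all tested genes.

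Of 6 tested E proteins and helix-loop-helix partners, 2 were higher in clone 2, and 1 was higher and 2 were lower in clone 1, against 7.06% higher in clone 2 and 4.16% higher and 11.4% lower in clone 1 over all tested genes. The medians were 0.17 in clone 2 and -0.05 in clone 1. Clone 2 had 0 called without clone 2 replicate 2, and clone 1 had 0 called, with a median of 0.15, without clone 1 replicate 2. The E protein genes Tcf12 and Tcf3, whose products the Id proteins bind, were higher in clone 2 by 0.37 and 0.16 (limma adjusted p = 0.0316 and 0.0286) and lower in clone 1 (-0.51 and -0.18, limma adjusted p = 0.0109 and 0.0187). Neurog2, a proneural gene, ran the other way and stood at 1.30 and 0.501 FPKM in clone 2, at 12.2 and 10.1 FPKM in clone 1, and at 2.71 to 6.91 FPKM in WT. Its difference from WT was -1.35 in clone 2 (limma adjusted p = 0.0524) and 1.35 in clone 1 (limma adjusted p = 0.0493).

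Of 12 tested dorsal neural tube genes, 8 were higher and 0 lower in clone 2, and 3 were higher and 3 lower in clone 1. Over all tested genes, 7.06% were higher and 6.96% lower in clone 2, and 4.16% were higher and 11.4% lower in clone 1. Without clone 2 replicate 2 clone 2 had 4 higher and 0 lower, and without clone 1 replicate 2 clone 1 had 1 higher and 1 lower, Lmx1b and Wnt1. Their median log2 difference from WT was 0.58 in clone 2 and -0.17 in clone 1. Wnt1, Wnt3a and Zic1 were higher in clone 2 (0.80, 1.35 and 1.86) and lower in clone 1 (-1.04, -0.98 and -1.05), with limma adjusted p values from 0.00397 to 0.00453 in clone 2 and from 0.00184 to 0.0166 in clone 1. Lmx1b, a roof plate and isthmus gene, was higher in both, by 0.59 in clone 2 (limma adjusted p = 0.00171) and 0.25 in clone 1 (limma adjusted p = 0.0229), and Pax7 was higher in clone 2 by 1.07 (limma adjusted p = 0.00253). Pax7 averaged 2.96 FPKM in clone 2, 0.528 FPKM in clone 1 and 0.884 FPKM in WT, so it passed the filter through clone 2 and its difference partly follows from the filter. Between the clones, 7 of 12 dorsal genes were higher in clone 2 and 2, Zic2 and Zic5, were lower, against 24.9% and 15.0% of all tested genes. Zic2 stood at 48.7 and 35.8 FPKM in clone 2, 74.0 and 69.9 FPKM in clone 1, and 46.9 to 57.4 FPKM in WT. Zic5 stood at 13.3 and 7.04 FPKM in clone 2, 26.6 and 22.3 FPKM in clone 1, and 13.5 to 17.4 FPKM in WT. Of 5 tested neighbours in the TGF-beta superfamily, 1 (Gdf11) was higher in clone 2 and 2 (Tgfbr1 and Smad2) were lower in clone 1, with medians of 0.003 in clone 2 and -0.26 in clone 1. Both clones had 0 of these called without their replicate 2. With all null against WT, limma called 0 genes of these lists, and 5 had an unadjusted p below 0.05.

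**Figure D4:**
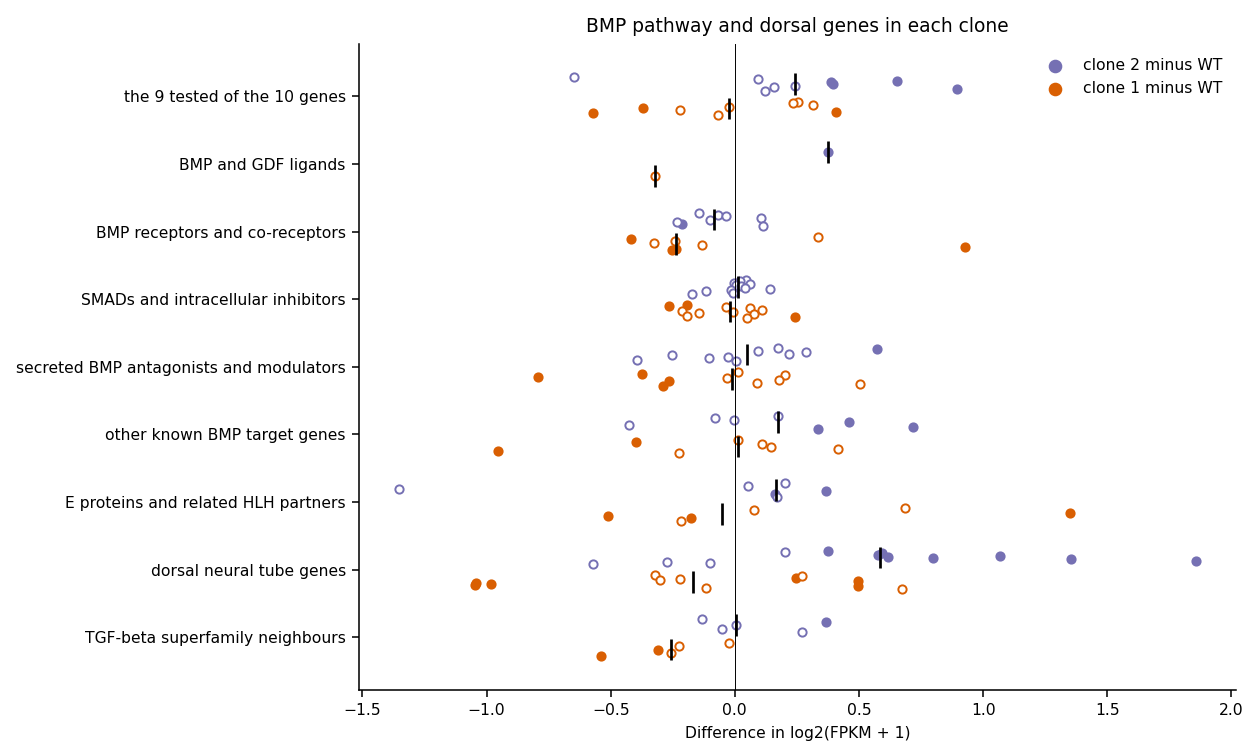
Difference from WT in log2(FPKM + 1) of each tested gene, by list, for clone 2 and clone 1, with filled points for a limma adjusted p below 0.05 and black ticks at the list medians. Of the 12 dorsal neural tube genes, 8 have filled points right of 0 and 0 left of it in clone 2. In clone 1, 3 have filled points right of 0 and 3 left of it. Over all tested genes, 7.06% were higher and 6.96% lower in clone 2, and 4.16% higher and 11.4% lower in clone 1.

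Other marker lists moved with the clones as well, and their part in the results above was not tested. Summed pluripotency markers stood at 18.1 to 23.1 FPKM in clone 2, 67.9 to 75.0 FPKM in clone 1 and 28.4 to 44.6 FPKM in WT. Of 8 such genes, 0 lay above and 3 below all WT libraries in clone 2. In clone 1, 4 (Pou5f1, Nanog, Dppa4 and Fgf5) lay above and 1 (Esrrb) below. Over all tested genes, 24.7% lay above and 22.7% below all WT libraries in clone 2, and 12.1% and 29.2% in clone 1. Zfp42, Esrrb, Klf4 and Tfcp2l1 stayed below 1.4 FPKM in every library. Pou5f1 averaged 12.6 FPKM in clone 2, 50.5 FPKM in clone 1 and 22.6 FPKM in WT. Summed surface ectoderm and epithelial markers stood at 28.4 to 41.0 FPKM in clone 2, 64.5 to 75.3 FPKM in clone 1 and 36.1 to 51.7 FPKM in WT. Of 9 such genes, 0 lay above and 1 below all WT libraries in clone 2. In clone 1, 4 lay above and 1 (Tfap2c) below. Tfap2a, Tfap2c, Grhl2 and Grhl3 stayed at or below 1.21 FPKM in every library. Trp63, a defining gene of surface ectoderm, was at or near 0 in every library. Summed anterior neural markers, which include Lhx5, stood at 178 to 213 FPKM in clone 2, 269 to 301 FPKM in clone 1 and 290 to 345 FPKM in WT, and 7 of 8 lay below all WT libraries in clone 2 and 4 of 8 in clone 1, against 22.7% and 29.2% of all tested genes. Neural crest markers summed to 41.7 to 47.3 FPKM in clone 2, 45.3 to 51.4 FPKM in clone 1 and 51.2 to 56.2 FPKM in WT. Sox9 made up most of each sum, at 26.6 to 39.8 FPKM over all libraries. Sox10, Foxd3, Snai2 and Tfap2b were low and untested, with a highest value of 1.69 FPKM, for Tfap2b in clone 2 replicate 1. Clone 2 had 3 of the 7 crest genes above every WT library and 2 below, while clone 1 had 2 above and 4 below. Mesoderm markers stayed at or below 2.20 FPKM and endoderm markers at or below 1.27 FPKM in all libraries. Neuronal markers summed to 50.1 to 52.0 FPKM in clone 2, 57.3 to 65.7 FPKM in clone 1 and 63.0 to 65.0 FPKM in WT. Among the WT libraries, replicate 2 was lowest in Msx3 and highest in Bmp4 and Msx2. It was also highest in the pluripotency sum and in the sum of surface ectoderm and epithelial markers.

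On the log2(FPKM + 1) scale Msx3 had the widest range of the 10 genes over the 8 libraries. The 5 tested genes nearest to it, by Euclidean distance over the 8 libraries after centring each on its WT mean, were Flrt3, Sp5, Wnt7b, Clec2l and Syt7, at distances of 0.218 to 0.317. Flrt3, a leucine-rich transmembrane protein gene, stood at 44.1 and 54.6 FPKM in clone 2, at 17.8 and 16.9 FPKM in clone 1, and at 22.5 to 28.6 FPKM in WT. Sp5, a zinc finger gene known as a WNT target, stood at 5.20 and 5.69 FPKM in clone 2, at 1.37 and 1.61 FPKM in clone 1, and at 2.03 to 3.46 FPKM in WT. The WNT ligand gene Wnt7b stood at 31.6 and 40.3 FPKM in clone 2, at 12.5 and 12.6 FPKM in clone 1, and at 15.2 to 21.7 FPKM in WT. Like Msx3, these genes were lowest among the WT libraries in replicate 2. The nearest genes were chosen for their likeness, so no test is given.

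**Figure D5:**
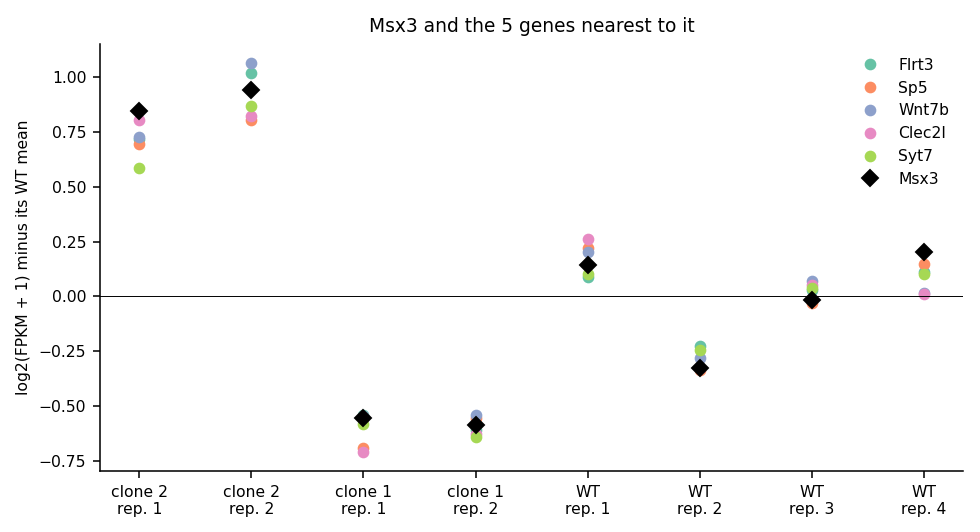
log2(FPKM + 1) minus its own WT mean for Msx3 (black diamonds) and the 5 genes nearest to it (circles) in each of the 8 libraries. All 6 genes lie above 0 in the clone 2 libraries and below 0 in the clone 1 libraries and in WT replicate 2.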

How the data were processed

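Poly(A) RNA of 8 libraries (clone 2, clone 1 and WT) was analysed. The labels call them biological replicates without naming separate cultures, so p-values measure only the spread between these libraries. FPKM per library, a mean read count per genotype (a signal of unstated scaling), the fold (ratio of null to WT) and an unadjusted p-value come from the authors' deposited table, per its headers. The submitters' processing notes list FastQC, SAMtools, TopHat2, Cufflinks, DESeq2, GRCm38 and mm10, with neither roles nor versions. Null columns name a clone but no sample title, so each was assigned to its clone.

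limma 3.58.1 in R 4.3.3, with trend and robust moderation, was run on log2(FPKM + 1), keeping the 14521 genes that averaged 1 FPKM or more, and was tested on simulated data. P-values were Benjamini-Hochberg adjusted over all of them, with a threshold of 0.05. Null against WT used 2 groups, and the clone comparisons used 3 groups with 1 shared spread, which holds no spread between lines. The gene groups and lists were chosen with earlier results of these data known. Named were all 10 genes, up to 4 called per list and comparison by adjusted p, and the 5 genes nearest Msx3. Among alternatives were another pseudocount, filter, scaling and moderation, a replicate block and leaving out each library. Coordinates are from GENCODE M21 (GRCm38). A gene listed at 0 FPKM can be a failed estimate. The depth per library is unknown, and no counting interval is given.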

Additional observations from a re-analysis of the deposited data

Results flagged for a closer look

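In WT, replicate 2 stood at 1.24 FPKM for Msx2, with a gap to the next library of 0.864 of the group's whole range, above Dixon's critical value for 4 libraries. Such a gap is passed by chance in about 1 group of 20, and Msx2 was the only one of the 10 genes flagged for it.

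The effects of the deletion lines differed from each other in the direct limma test of clone 2 minus clone 1 for 5 of the 9 tested genes, where 39.9% of all tested genes were called. Msx3, among these, passed the filter through clone 2, so its difference partly follows from the filter. The log2 difference was 0.77 for Id3 (adjusted p = 9.75e-05), 0.41 for Id2 (adjusted p = 0.00112), 0.47 for Id4 (adjusted p = 0.00589) and 1.47 for Msx3 (adjusted p = 0.000549). It was -0.90 for Bmp4 (adjusted p = 0.0463), a call lost without clone 2 replicate 2 (adjusted p = 0.230).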

How the results depend on the processing

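Over all null libraries, limma called 0 of the 9 tested genes under every alternative run. The number of all genes called there was 8, and it became 5 after rescaling, 3 with libraries of a line correlated, 1 with the replicate block, 106 with the mean of the clones in the 3-group fit, and 3 to 12 when 1 library was left out. In clone 2 against WT, 2036 genes became 1160 with no filter and 45 with the replicate block, and 174 (without clone 2 replicate 2) to 2406 with 1 library left out. The 4 members called there became 0 with the replicate block and 3 to 4 with 1 library left out. In clone 1 against WT, 2266 genes became 1506 with no filter and 36 with the replicate block, and 443 (without clone 1 replicate 2) to 3111 with 1 library left out. The 3 members called there became 1 at a mean of at least 5 FPKM, which removes Msx1 and Msx3, 0 with the replicate block, and 1 to 4 with 1 library left out. In clone 2 against clone 1, 5794 genes became 2995 with the replicate block and 3098 to 5910 with 1 library left out, and the count of 5 members called became 3 at a mean of at least 5 FPKM, where Id4, Msx3 and Bmp4 were not tested and Id1 was newly called, 3 with the replicate block and 4 to 6 with 1 library left out. Replicate 1 minus replicate 2, over all tested genes, correlated at -0.085 between the clones, 0.0091 between clone 2 and WT, and -0.015 between clone 1 and WT. These values show no pairing by replicate number. WT replicates 3 and 4 did not enter, so a batch shared in another way was not tested.

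Counting each single-gene result once per alternative, 452 values kept direction and side of the threshold, 27 lost a call, 9 gained one and 14 changed sign, and no result that changed sign had been called. On leaving out 1 library, log2 differences of all null from WT ran from -0.12 to 0.16 for Id3, -0.073 to 0.10 for Id4, -0.10 to 0.41 for Msx3, -0.35 to 0.064 for Bmp4 and -0.037 to 0.073 for Smad6. Bmp7 in clone 2 ran from -0.019 to 0.20, and Id2 in clone 1 from -0.084 to 0.037. In all null against WT, Id4 was -0.0068 and Msx3 -0.0038 with a pseudocount of 0.1, and Smad6 was -0.026 with the replicate block. Id2 in clone 1 was 0.023 after rescaling. The cause was not tested.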
